A study of Mus musculus with 4 samples.

Results

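Of the 6697 distinct regions in the deposited table, 619 overlapped a 3'UTR and, in every annotation row, neither coding sequence nor a 5'UTR. They were chosen by the authors' annotation, without use of the counts, and lay under 529 of the 3882 gene symbols in the table (13.6%). The annotation was 3'UTR and nothing else for 498 of the 619. Another 93 also lay upstream of a neighbouring gene, 13 also carried the label Genic from a further gene, and the rest also touched an intron. The study set m6A-modified mRNA of wild-type mouse embryonic stem cells beside that of Gsk-3 double-knockout (DKO) cells. Both genotypes were of the strain E14K, were grown without feeder cells on gelatin and had 14 days in medium without LIF, the cytokine that sustains self-renewal, before RNA was taken. The labels do not say whether either genotype came from 1 clone or several. Each genotype contributed 1 library of mRNA captured with an m6A antibody and 1 input library, 4 samples in all. The table holds a count for each genotype. Its headers give the genotype without saying antibody or input. The counts were assigned to the antibody libraries, since the study is described as one of m6A-modified mRNA, and a correction by the authors for input cannot be told from the table. The table has no region inside Gsk3a or Gsk3b, so the deletion was not checked. No replicate measures the spread within a genotype, so no p-value was computed and every comparison below is between these libraries.

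N6-methyladenosine is placed on mRNA by a nuclear methyltransferase complex, mostly in the last exon, around the stop codon and in the first part of the 3'UTR. In the 3'UTR the mark is read by YTH-domain proteins, some of which shorten the life of the transcript, and it lies beside the binding sites of microRNAs and of proteins that bind AU-rich elements. Gsk-3α and Gsk-3β are kinases that restrain Wnt and insulin signalling. Embryonic stem cells lacking both are known to resist differentiation.

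The sequence of the regions themselves was not used here. One region contained a microRNA whose sequence is known from RefSeq (GRCm38.p6). The region at chr6:85336255-85336406, in the 3'UTR of Rab11fip5, an adaptor of Rab11 recycling vesicles, spans the hairpin of Mir705 on the minus strand. The mature form at 85336341 to 85336360 is shown because it is the only annotated microRNA inside the 619 regions, with its seed (bases 2 to 8) in capitals.
mmu-miR-705: gGUGGGAGguggggugggca
That region had 55 wild-type reads and 9 in the double knockout, a 5.04-fold difference (95% interval 2.47 to 11.6), among the smaller folds of the set. Reads from the host transcript and from the microRNA precursor cannot be told apart in this count.

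Wild-type counts in the 619 regions ran from 15 to 735, with a median of 44 and quartiles of 28 and 72.5. Double-knockout counts ran from 0 to 53, with a median of 1. They summed to 39316 and 1889 reads. A fold divides wild-type by double-knockout reads and carries the constant (0.825) that the authors' own ratio contains. By this measure the sums differed 17.2-fold, as against 17.5-fold over the other 6078 regions. Every listed region was lower in the double knockout, inside and outside 3'UTRs, so the direction is a property of the table and says nothing of regions it leaves out. No count of the total transcript stands beside these counts, so less methylation per transcript, fewer transcripts, and fewer cells of a type that makes them cannot be told apart. With 1 library per genotype and no library totals, lower sequencing depth or weaker antibody capture in the double-knockout library cannot be told apart from these either.

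In 247 of the 619 regions the double knockout had no reads (39.9%, exact Clopper-Pearson 95% interval 36.0 to 43.9), where the share over all regions was 50.5%. A further 200 had 1 to 3 reads. For these 247 the fold can only be bounded from below, which was done by setting a double-knockout count of 0, and no other, to 3 counts. Each "at least" below refers to this floor, and the exact 95% limit of the ratio lies lower. Because counts of 1 and 2 were kept, a region with 0 reads can have a lower printed fold than one with 1 read. With these bounds the median fold was 11.0, beside 10.4 over all regions. At least 10-fold lower were 350 regions (56.5%, 52.5 to 60.5) against a background of 52.5%, at least 20-fold lower 141 (22.8%) against 23.1%, and at least 4-fold lower 617 against 99.9%. At these thresholds the 3'UTR shares lay near those of the whole table. In the 372 regions with double-knockout reads, folds ran from 3.92 to 152 with a median of 13.9. As log2 of double knockout over wild type with a pseudocount of 0.5, the median was -4.51 with quartiles of -5.60 and -3.30, beside -4.93 over all regions. Counting intervals here and below cover counting error only, because 1 library per genotype gives no replicate error. PCR copies of 1 molecule cannot be recognized in these reads, so even for counting error the intervals may be too narrow.

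**Figure D1:**
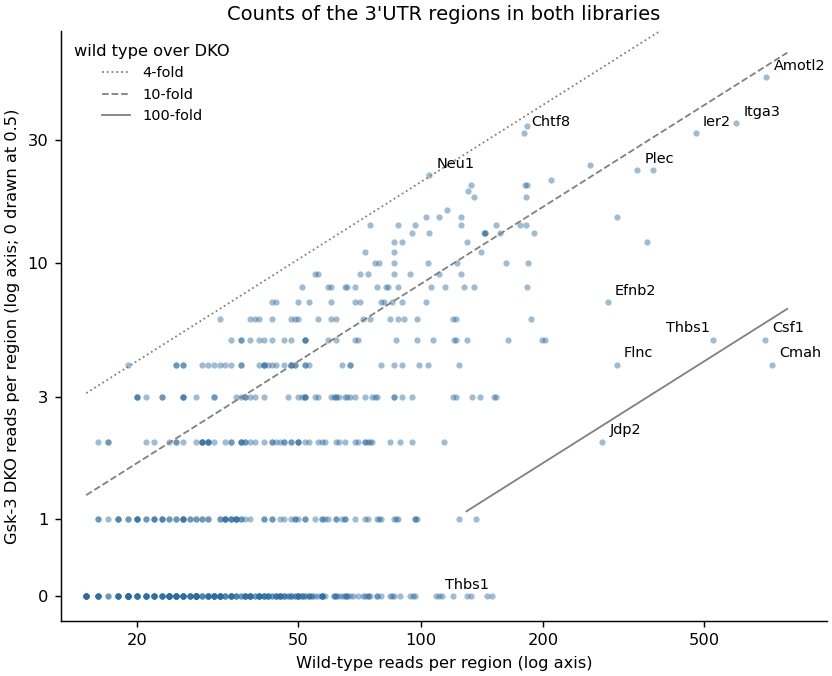
Each point is 1 of the 619 3'UTR regions, with wild-type reads on the x axis and double-knockout reads on the y axis (both log axes, counts of 0 drawn at 0.5), and the lines mark folds of 4, 10 and 100. Amotl2, Itga3 and Ier2 lie near the 10-fold line at the upper right, while Cmah and Csf1, of like wild-type depth, lie past the 100-fold line.

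The deepest regions ranged from some with a sizeable double-knockout signal to some with almost none, with others in between. Cmah, which encodes the hydroxylase that makes the sialic acid Neu5Gc, had the most wild-type reads, 735 against 4 in the double knockout on chromosome 13 (24470366 to 24470624), a 152-fold difference (58.9 to 558). Csf1, the growth factor of macrophages, had 706 against 5 on chromosome 3 (107742582 to 107743083), 116-fold (49.7 to 360). Thbs1, the matrix glycoprotein thrombospondin 1, had 526 against 5 in one region and 150 against 0 in the next. By contrast, Amotl2, an angiomotin that holds back the Hippo effector YAP, had 711 against 53 on chromosome 9 (102731856 to 102732264), 11.1-fold (8.36 to 14.9). Its interval does not reach those of Cmah or Csf1, although all 3 regions had at least 706 wild-type reads.

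Integrin subunit genes stood with Amotl2. Itga3 had 598 against 35 (14.1-fold, 10.02 to 20.4) and Itga5 had 374 against 23 (13.4-fold, 8.80 to 21.4). Both regions also lie upstream of another gene, Pdk2 and Zfp385a. The immediate early gene Ier2 had 476 against 32 (12.3-fold) and the cytoskeletal linker gene Plec 341 against 23 (12.2-fold). Phactr4, a regulator of protein phosphatase 1 and actin, had 361 against 12 (24.8-fold), in a region that also lies upstream of the small nucleolar RNA host gene Snhg3. Flnc, the muscle filamin, differed from Plec with 304 against 4 (62.7-fold, 24.2 to 232). The Eph receptor ligand gene Efnb2 had 289 against 7 (34.1-fold, 16.3 to 85.5), and Jdp2, a repressor that dimerizes with Jun, had 280 against 2 (115-fold, 31.7 to 958).

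Jun itself, a subunit of AP-1, had 262 against 24 on chromosome 4 (95050002 to 95050224), 9.004-fold (5.92 to 14.3), and its interval lies wholly below that of Jdp2. The centromere protein gene Cenpb had 209 against 21 (8.21-fold). The junction scaffold gene Magi1 had 203 against 5 (33.5-fold), and Slc2a1, which encodes the glucose transporter GLUT1, 199 against 5 (32.8-fold, 13.8 to 102). Fzr1, an activator of the anaphase-promoting complex, had 190 against 13 and the cytoskeletal crosslinker gene Specc1l 187 against 6. Lrrc58 had 183 against 20 (7.55-fold). Of the 16 regions with 200 or more wild-type reads, 0 were without double-knockout reads, which allows a share of up to 20.6%, and 14 were at least 10-fold lower. Over all regions of that read number the shares were 11.4% and 72.1%, both inside the intervals of the 3'UTR regions.

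Among regions where the double knockout had no reads, the second region of Thbs1 was the deepest (at least 41.2-fold lower). Bcl9l, a co-activator of β-catenin, followed with 146 against 0 on chromosome 9 (44509880 to 44510044), at least 40.1-fold. Cxx1a and Cxx1b, members of a retrotransposon-derived family on the X chromosome, had 133 and 113 against 0 (at least 36.6-fold and 31.1-fold). The authors' counting could split reads between such related copies, so the share of each is uncertain. Pdgfb, a platelet-derived growth factor chain, had 130 against 0 and Acvr1, a type I receptor for BMPs, 120 against 0 (at least 35.7-fold and 33.0-fold). Syt13, a synaptotagmin, had 109 and Nfic, a nuclear factor I transcription factor gene, 97, again against 0. The bound of such a region follows from its wild-type count alone.

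Among regions with double-knockout reads and at least 44 wild-type reads, 5 of the 8 largest folds rested on 2 double-knockout reads or fewer. Cops8, a subunit of the COP9 signalosome, had 124 against 1 (102-fold, 18.02 to 4072). Arid3a and Tnfaip1 each had 97 against 1 and BC017643 98 against 1, with folds close to 80.8 and lower limits between 14.02 and 14.2. Upper limits for these 4 regions were 3192 or more, so their order among themselves cannot be read.

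The smallest fold of all was that of the histone methyltransferase gene Whsc1, with 19 against 4 (3.92-fold, 1.30 to 15.8). At 44 or more wild-type reads, a limit at which a small fold implies many double-knockout reads, the smallest were as follows. The lysosomal sialidase gene Neu1 had 105 against 22 on chromosome 17 (34934965 to 34935141), 3.94-fold (2.47 to 6.55). Prmt6, an arginine methyltransferase gene, had 75 against 14 (4.42-fold), Fam129b 183 against 34 (4.44-fold, 3.07 to 6.605) and Chtf8, a subunit of a clamp loader, 180 against 32 (4.64-fold, 3.17 to 6.99). Ltbr, the lymphotoxin β receptor, had 88 against 14 and Ywhag, a 14-3-3 protein gene, 44 against 7, both 5.18-fold. Ltbr and Prmt6 each had 1 other 3'UTR region. Over both regions the sums were 250 against 24 for Ltbr (8.59-fold, 5.64 to 13.7) and 96 against 15 for Prmt6 (5.28-fold). The upper limits of the single regions above stayed below the lower limits of the deep regions of Cmah, Csf1, Thbs1, Flnc and Jdp2 described earlier.

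The genes were also grouped by function. The 14 lists name 983 genes, of which 425 had a region of any kind and 92 a 3'UTR region of the kind described here. Each list's counts are to be read beside 50.5% without double-knockout reads and 52.5% at least 10-fold lower over all regions, and 39.9% and 56.5% over the 619. Lists of 2 to 21 regions allow no more than a description, and nothing here is particular to a list. Ligands, receptors and kinases of the growth factor and MAP kinase list had 12 regions under 11 of its 34 genes in the table. Besides Efnb2 and Pdgfb, Hbegf, a ligand of the EGF receptor, had 74 against 0 (at least 20.3-fold) and Fgf5 49 against 0. Epha2, an Eph receptor, had 40 against 0, while its relative Ephb3 had 88 against 8 (9.07-fold, 4.41 to 21.7). The cytokine gene Lif had 104 against 4 in one region (21.4-fold) and 20 against 0 in the other. Among regulators inside the cell, the Ras pathway inhibitor Spry4 had 88 against 6 (12.1-fold) and the kinase gene Map4k4 86 against 11 (6.45-fold). In all, 6 of the 12 had no double-knockout reads (50.5% over all regions) and 8 were at least 10-fold lower (52.5% over all regions).

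In the Wnt list, which has only 5 regions, 4 had no double-knockout reads, where the share was 50.5% over all regions and 39.9% over the 619. Beside Bcl9l, the ligand genes Wnt4 and Wnt7b had 84 and 44 against 0, and Apc, the scaffold of the β-catenin destruction complex, had 26 against 0. The casein kinase gene Csnk1d had 66 against 3 (18.1-fold, 5.94 to 90.2). In the insulin and mTOR list, 5 of 8 regions had none (50.5% over all regions). Its median wild-type count was 27.5, and among the 619 regions 57.7% of those with 20 to 29 reads had none. The receptor gene Igf1r had 80 against 1 (66.0-fold, 11.5 to 2638), Igfbp5, an IGF-binding protein gene, 45 against 0, the kinase gene Akt1 38 against 0 and the adaptor gene Grb10 27 against 0. In the TGF-beta list, Acvr1 was joined by Smad3, a transducer of the pathway (33 against 1), and the ubiquitin ligase gene Smurf1 (20 against 0).

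Transcription factors of development had 12 regions under 9 genes, of which 6 were without double-knockout reads and 9 at least 10-fold lower, beside 50.5% and 52.5% over all regions. Twist1, a factor of mesenchyme, had 89 against 0 (at least 24.5-fold), Snai1, a repressor of E-cadherin, 45 against 0 and Sox7 34 against 0. Tead1, the DNA-binding partner of YAP, had the deepest region of the list with 182 against 14 (10.7-fold, 6.23 to 20.004). Foxk1 had 58 against 2 and Foxk2 55 against 3. The pluripotency list had 2 regions, under the nuclear receptor gene Esrrb (41 against 5, 6.76-fold) and L1td1 (33 against 0).

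Immediate early genes and other transcripts known for AU-rich elements had 16 regions under 12 of the 35 genes in the table (34.3%, where the share over all symbols was 13.6%). Shares above 13.6% were common among the lists. They were 32.4% for growth factor and MAP kinase genes, 29.8% for adhesion and cytoskeleton and 24% for insulin and mTOR genes. The ubiquitin list had 23.7%, membrane traffic and glycosylation 23.1%, Wnt 21.7%, developmental transcription factors 21.4% and chromatin 18%. The pluripotency and TGF-beta lists, with 14.3%, lay close to 13.6%. Below it were 12.9% in the matrix list, 8% in the cell cycle list and 4.55% in the RNA-binding and m6A machinery list. A share above 13.6% is therefore not particular to the immediate early list. The deepest regions of the immediate early list had like folds. Gadd45b, a stress-response gene, had 128 against 8 (13.2-fold), Mycn, a member of the Myc family, 106 against 8 (10.9-fold), Fosl2, an AP-1 subunit, 103 against 7 (12.1-fold) and Atf3, a stress-induced transcription factor, 84 against 6 (11.5-fold). With Ier2 and Jun, these 6 were the deepest regions of the list, with folds from 9.004 to 13.2 and overlapping intervals. Next in depth were second regions of Fosl2 (76 against 3, 20.9-fold, 6.88 to 104) and Atf3 (64 against 1, 52.8-fold, 9.14 to 2117). Their folds were higher, with intervals that overlap those of the 6. Of the shallower ones, the NF-κB inhibitor gene Tnfaip3 had 50 against 0 and Klf6 37 and 25 against 0. Socs3, an inhibitor of LIF signalling through STAT3, had 55 against 1 in one region and 53 against 7 in the other (6.24-fold). In total 4 of the 16 had no double-knockout reads and 11 were at least 10-fold lower, beside 50.5% and 52.5% over all regions.

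Adhesion and cytoskeletal genes had 21 regions, 4 of them without double-knockout reads and 12 at least 10-fold lower, where all regions gave 50.5% and 52.5%. Itga6 had 81 against 7 (9.54-fold) and the tropomyosin gene Tpm1 78 against 8 (8.04-fold), whereas the calponin gene Cnn2 had 94 against 0 (at least 25.8-fold) and Nes, the neural progenitor filament nestin, 54 against 0. In the matrix list (8 regions), Col18a1, a basement membrane collagen, had 141 against 11 and 80 against 0, and Timp2, a metalloproteinase inhibitor, 22 against 0. All 8 regions of the membrane traffic and glycosylation list were at least 10-fold lower (52.5% over all regions, 56.5% over the 619), with folds, zeros at their bound, from 10.4 to 47.8. They included the SNARE gene Stx6 (86 against 3), the sulfotransferase genes Chst15 (78 against 0) and Hs6st1 (58 against 1), and Sulf1, which trims heparan sulfate (52 against 4).

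In the ubiquitin list 5 of 10 regions had no double-knockout reads, near the 50.5% of all regions, and 3 were at least 10-fold lower (52.5% of all regions). The median wild-type count of this list was 24.5, beside 44 over the 619 regions, and low counts give low bounds. Znrf1, a ubiquitin ligase gene, had 153 against 14 (9.01-fold). In the chromatin list 2 of 9 had none and 4 were at least 10-fold lower (50.5% and 52.5% of all regions), with the histone methyltransferase gene Mll2 at 56 against 2 and Mbd3, a subunit of the NuRD complex, at 39 against 6 (5.36-fold). Of the RNA-binding and m6A machinery list only Larp1, of 22 genes in the table, had such regions. The cell cycle list had 2, under the survival genes Bcl2l1 (52 against 4) and Bcl2 (17 against 0). Between lists, median folds with zeros at their bound ran from 6.74 in the ubiquitin list to 27.2 in the TGF-beta list, which has 3 regions, beside 11.0 over the 619.

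**Figure D2:**
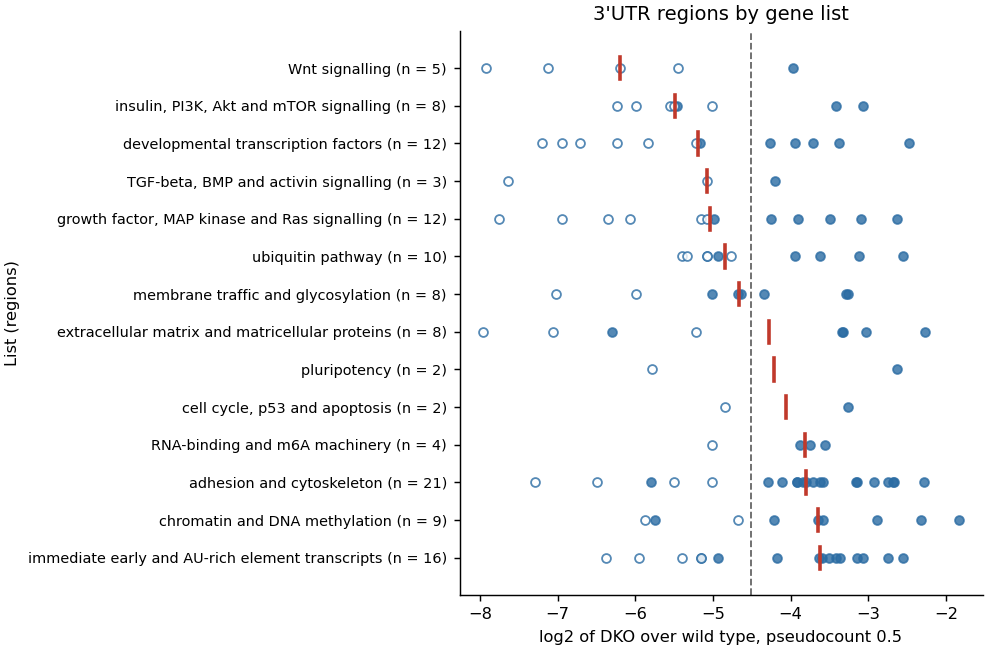
Each point is a 3'UTR region of a listed gene on the log2 scale of double knockout over wild type, open where the double knockout had no reads (there the value follows from the wild-type count), with red bars at each list's median and a dashed line at the median of the 619 regions (-4.51). The immediate early list holds a close cluster of filled points near its median of -3.62, with its other filled points spread from -5.15 to -2.56. In the Wnt list 4 of the 5 points are open.

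Most genes had 1 such region, and 73 had several under a single gene symbol, 15 of them 3 or more. Between neighbouring regions of a gene the median gap was 288 bases, with quartiles of 129 and 563. In the 73 genes, 37 had double-knockout reads in every region, 8 in none and 28 in some. The difference between the highest and lowest log2 value within a gene had a median of 1.34.

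Csf1 varied most among the genes with 3 or more regions that are named here. From the 3' end of the gene inward, on chromosome 3, the regions had 17 against 2, 153 against 3 and 706 against 5. Their folds were 7.01 (1.66 to 62.6), 42.1 (14.1 to 206) and 116 (49.7 to 360), the first and last with overlapping intervals. Summed over the 3 regions the counts were 876 against 10 (72.3-fold).

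Hunk, a kinase gene, had 28, 46, 18 and 30 wild-type reads in its 4 regions against 0 in each, a sum of 122 against 0 (at least 33.5-fold). In Sox11, a neural transcription factor, 3 neighbouring regions on chromosome 12 had 74, 63 and 22 against 0. The prostaglandin transporter gene Slco2a1 had 114 against 2 between flanking regions with 53 and 31 against 0. Igfbp3, an IGF-binding protein gene, had 25 against 2, 19 against 0 and 28 against 0. Over these 3'UTR regions the double knockout had 0 to 2 reads in total for each of the 4 genes. Other regions of the same genes added to this. Hunk had 206 against 9 across the end of the coding sequence and 64 against 1 in coding exons. Sox11 had 1308 against 2 across the end of the coding sequence, and Igfbp3 15 against 1 in coding exons.

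Other genes had double-knockout reads in all or most of their listed regions. Lamc1, a laminin chain of basement membranes, had 176 against 14, 44 against 4 and 20 against 3 (sum 9.43-fold, 6.03 to 15.5). Ywhag had 44 against 7, 181 against 20 and 40 against 4 (7.05-fold over the sum), although the last 2 regions overlap and may share reads. Larp1, which binds the cap of mRNAs for ribosomal proteins, had 64 against 4, 98 against 5, 19 against 0 and 24 against 1 (16.9-fold over the sum). The kinase gene Limk2 had 27 against 1, 73 against 3 and 48 against 4. Dos had 5 regions with folds from 7.42 to 35.5, the deepest with 184 against 10, and 1 of the 5 also lay in the 3'UTR of Stk11. Hic2, a transcriptional repressor gene, had 69 against 5, 54 against 0 and 120 against 6. Swap70 had 25 against 4, 183 against 8 and 40 against 0.

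**Figure D3:**
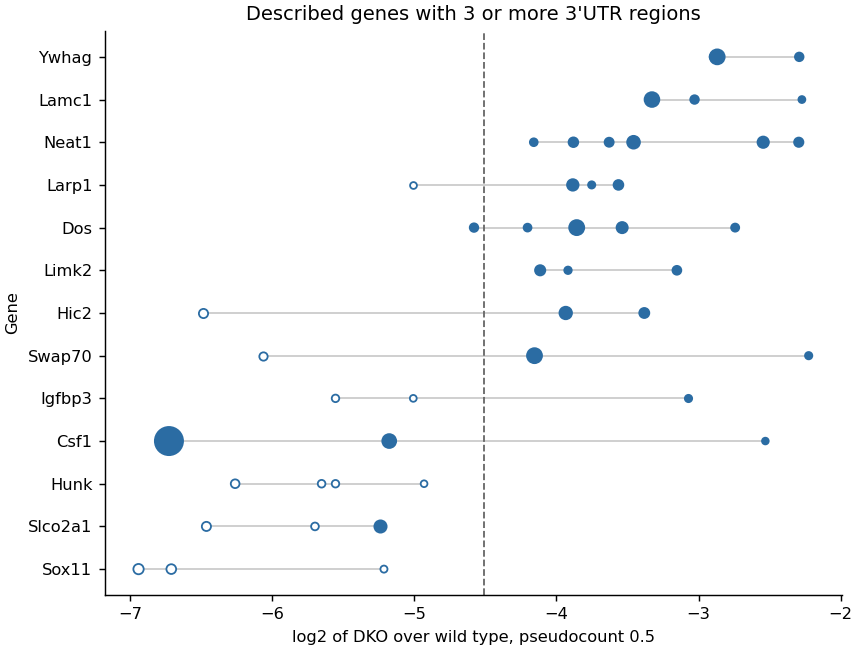
Each row is a gene with 3 or more 3'UTR regions that the text describes and each point a region, placed by log2 of double knockout over wild type, sized by wild-type reads and open where the double knockout had none; the dashed line is the median of the 619 regions (-4.51). All points of Ywhag, Lamc1, Neat1 and Limk2 lie to the right of the line and all points of Hunk, Slco2a1 and Sox11 to the left.

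The label did not mean a protein-coding transcript in every case. Under genes that RefSeq (GRCm38.p6) records as non-coding lay 16 of the 619 regions, and 6 of these under Neat1, the long non-coding RNA that scaffolds nuclear paraspeckles. Its regions on chromosome 19 (5843055 to 5845001) had 52, 62, 95, 56, 32 and 126 wild-type reads against 3, 3, 13, 9, 1 and 9. Over the sum of 423 against 38 the fold was 9.18 (6.58 to 13.2). Another of the 16, under BC031361 on chromosome 16 (38085117 to 38085347), had 78 against 3 and is the region that the table also places upstream of Gsk3b. Of the cell type markers considered, the table listed 4 of 10 pluripotency genes (Pou5f1, Esrrb, Lin28a and Utf1, but not Nanog, Sox2, Zfp42, Klf4, Tdgf1 or Dppa5a), 6 of 7 primitive endoderm genes, 4 of 7 fibroblast genes and 3 of 5 neural genes. Only Esrrb, Sox7, Nes and Sox11 among them had a 3'UTR region of this kind. A gene can be missing from a table of m6A regions and still be expressed.

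Regions of 1 gene share a transcript, so those in its 3'UTR were set beside those in its coding exons. Of the 529 gene symbols, 217 (41.0%) also had a region overlapping coding sequence, and 268 (50.7%) had no region of any other kind. In the 217, the region with the most wild-type reads per base was a 3'UTR one in 75 (34.6%), where 3'UTR regions made up 41.2% of the exonic regions of a gene on average. Regions under the 268 genes had a median of 41 wild-type reads and 42.2% without double-knockout reads, and those of genes with coding regions 47 reads and 38.2%.

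In 104 genes a 3'UTR region could be compared with regions inside coding exons. The mean log2 value was lower for the 3'UTR in 59 genes, higher in 44 and equal in 1. The median difference, 3'UTR minus coding, was -0.29 with quartiles of -1.19 and 0.76, and it was 0.07 with a pseudocount of 2, so no direction can be given. In the 45 genes with at least 50 wild-type reads in both kinds it was -0.11. Across the 104 genes Pearson's r between the 2 values was 0.35, a description of points that share both libraries and, at counts of 0, follow read number. Summed counts gave intervals that lay apart in 1 of the 104 genes.

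That gene was Bcl9l. Its 3'UTR region had 146 against 0, which is 40.1-fold at the floor of 3 counts with an exact lower limit of 32.2, while its 6 coding regions summed to 1486 against 132, 9.29-fold (7.77 to 11.2). Among the 45 genes with at least 50 wild-type reads in both kinds, Twist1 had 89 against 0 in the 3'UTR and 56 against 2 in coding sequence, Cxx1a 133 against 0 and 52 against 1, Klf6 62 against 0 and 153 against 14, and Amotl1 73 against 0 and 232 against 14, at the same end by log2 value. The place of these genes depends on how a count of 0 is treated. As folds with 0 set to 3 counts, the 3'UTR and coding values were 24.5 and 23.1 for Twist1 and 36.6 and 42.9 for Cxx1a. For Klf6 they were 17.0 and 9.01 and for Amotl1 20.1 and 13.7. At the other end of the 45 stood Sash1, an adaptor gene, with 135 against 8 in the 3'UTR and 115 against 0 in coding sequence. Sox4 had 95 against 5 and 264 against 4, Mycn 106 against 8 and 169 against 3, and the kinase gene Dyrk1a 157 against 13 and 76 against 2. Nuak1, with 51 and 271 reads, had 0 in the double knockout in both kinds, and only its read numbers separate them.

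Folds of Plec, Ier2 and Csf1 had overlapping intervals in both kinds. The fold of Plec was 12.2 (8.01 to 19.6) in the 3'UTR and 9.20 (8.61 to 9.84) over 18 coding regions. Ier2 had 12.3-fold (8.57 to 18.1) and 7.08-fold (5.67 to 8.95). Csf1 had 72.3-fold (39.1 to 151) and 75.1-fold (29.1 to 277). Against regions that cross from coding sequence into the 3'UTR, which 46 genes had, the median difference was -0.21 (26 lower and 20 higher). There the intervals of summed counts lay apart in Basp1 and in Slc2a1. Basp1, a membrane-bound signalling protein gene named here after its value was seen, had 96 against 0 in the 3'UTR and 1520 against 141 at the end of the coding sequence (8.89-fold, 7.48 to 10.6). Slc2a1 had 32.8-fold in the 3'UTR and 5.98-fold (4.55 to 7.99) in the region across its stop codon. The table also places the 3'UTR region of Slc2a1 in the gene model Gm19660.

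**Figure D4:**
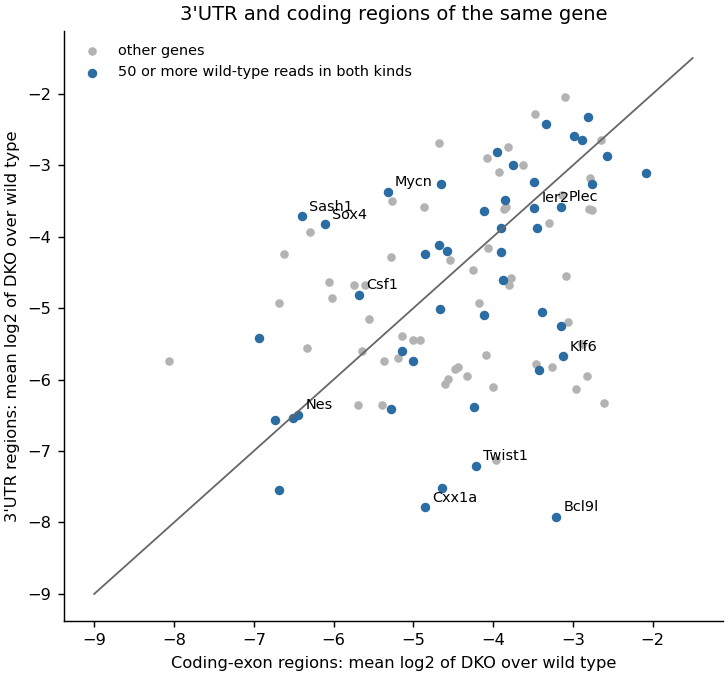
Each point is a gene, with the mean log2 of double knockout over wild type in its coding-exon regions on the x axis and in its 3'UTR regions on the y axis; blue points are the 45 genes with at least 50 wild-type reads in each kind, and the line marks equal values. Points lie on both sides of the line, with Bcl9l farthest below it and Sash1 among those farthest above.

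The 3'UTR regions were compared last with other kinds of region at like read number, because the share without double-knockout reads depends on it. Among the 619 that share went from 73.9% (58.9 to 85.7) at 15 to 19 wild-type reads to 27.4% (21.1 to 34.4) at 50 to 99 and 12.3% (5.47 to 22.8) at 100 to 199. As listed, it was 39.9% for 3'UTR regions, 32.7% for the 318 regions overlapping both coding exon and 3'UTR, 29.3% for the 1209 in coding exons only and 70.9% for the 1045 in introns only. With the other kinds weighted to the wild-type counts of the 3'UTR regions, the shares became 39.3%, 35.6% and 70.1%. Of these, 39.3% lies inside the 3'UTR interval (36.0 to 43.9), 35.6% just below it and the intronic share far above it. Median log2 values weighted in the same way were -4.40, -4.17 and -5.55, beside -4.51. The weighted shares at least 10-fold lower were close together, at 58.8%, 56.2% and 57.9%, beside 56.5% for the 3'UTR regions. The 3'UTR regions were also about as long (median 193 bases, 150 to 844) as all regions (191), with 0.212 wild-type reads per base, beside 0.265 in coding exons only and 0.243 across the end of the coding sequence.

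**Figure D5:**
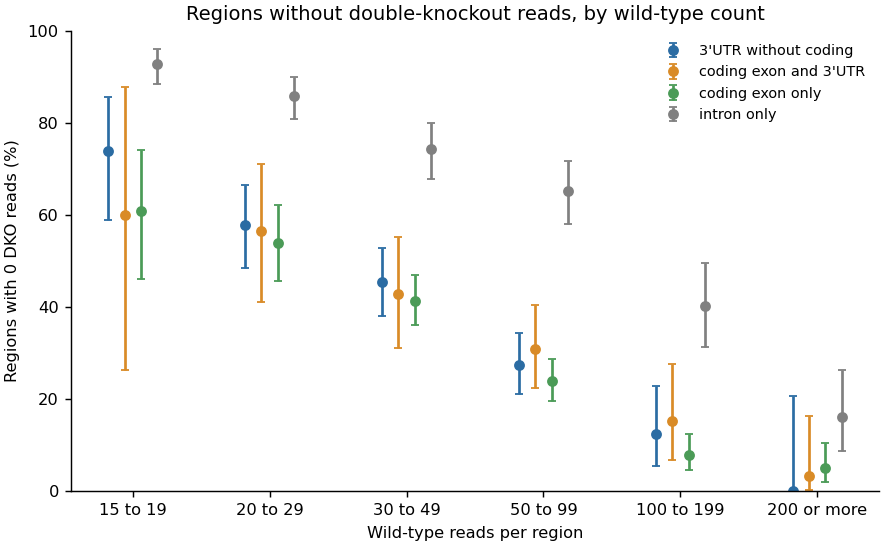
Share of regions without double-knockout reads (y axis, %) by wild-type reads per region (x axis), with exact 95% binomial intervals, for 4 kinds of region. The intervals of the 3'UTR points (blue) overlap those of both coding kinds in every bin, for example 27.4% against 23.9% in coding exons only at 50 to 99 reads, while the intronic share there was 65.1%.

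Position was given by the 3' end of the gene in RefSeq. Of 618 regions whose gene was found there, 617 overlapped it, so coordinates were read as GRCm38, whereas mm9 is the build in the submitters' processing notes. A distance to the gene end could be computed for 498 of these, not the same set as the 498 annotated only as 3'UTR. In them the middle of the region lay a median of 1145 bases before the annotated gene end, with quartiles of 540 and 2243, and 219 (44.0%) lay within 1000 bases. The share at least 10-fold lower was 51.8% in the 114 regions within 500 bases, 61.9% in the next 105, 51.5% in the 134 from 1000 to 2000 bases and 60% in the 145 beyond. Median log2 values in the same 4 classes were -4.18, -4.39, -4.61 and -4.64, lower with distance from the gene end, while the 10-fold share alternated. These differences were not tested.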

How the data were processed

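The data were 1 table of regions with gene annotation. The submitters' processing notes list Bowtie2, DESeq and mm9 with no version. How regions were called, counted and admitted to the table is not given in the sources used here. The deposited counts, 1 per genotype and region, are whole numbers whose normalization the headers do not state. The deposited ratio is wild-type over double-knockout counts with a constant of 0.825. The deposited read density is a signal, wild-type counts per base. With 0 input columns and no library totals, sequencing depth is unknown.

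Rows were merged so that each distinct region entered once. Folds carry the constant, with a double-knockout count of 0 set to a floor of 3 counts and counts of 1 or 2 kept; log2 values a pseudocount of 0.5. Intervals are exact 95% ones (Clopper-Pearson, for a ratio given the sum of both counts). Python 3.11.15, numpy 2.4.6, pandas 2.3.3 and scipy 1.17.1 were used, and the functions were tested on simulated counts. To compare at like read number, other kinds of region were weighted to the wild-type counts of the 3'UTR regions in 6 classes.

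The rule for the regions uses the annotation and not the counts, but both it and the gene lists were chosen with earlier results of these data known. Named were, passing over predicted genes, the 20 regions with most wild-type reads, the 8 deepest without double-knockout reads, the 8 smallest and 8 largest folds at or above the median wild-type count, genes with 3 or more regions, up to 4 regions per list, and the 5 genes at each end of the difference from coding regions among those with at least 50 wild-type reads in both kinds. Other list members were named after their values were seen. A few genes chosen in this way are not reported here. Overlaps left 2 pairs of 3'UTR regions that may share reads.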

Additional observations from a re-analysis of the deposited data

How the results depend on the processing

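With 1 library per genotype no result has a replicate error, and no library can be left out. No paired analysis was possible because each genotype had 1 library. The median log2 value of the 3'UTR regions (-4.51) was -3.39 with a pseudocount of 2 and -4.79 without the authors' constant, both of which enter the value directly. The share without double-knockout reads (39.9%) was 31.6% in the 450 regions with at least 30 wild-type reads. The share at least 10-fold lower (56.5%) was 68.4% in those regions, 68.8% without the constant and 51.2% with the floor at 3.69 counts, the upper limit of a count of 0. The filter on read number left out the regions with 15 to 19 and 20 to 29 wild-type reads. Of these, 73.9% and 57.7% had no double-knockout reads, and 17.4% and 27.6% were at least 10-fold lower. The other 14 of 20 alternatives of these results and of the difference from coding regions stayed within the 95% interval of the share, or of the median over regions or genes, and that difference changed sign with a pseudocount of 2, to 0.07. All 384 alternatives of 128 named regions stayed inside their counting intervals, with 0 reversals. This is a weak check. Every listed region was lower in the double knockout, and the intervals have no upper limit where it had 0 reads. Single values moved all the same. With a pseudocount of 2 the log2 value of the second Thbs1 region went from -7.96 to -5.97. Depth limits most single regions: a fold that rests on 0 to 3 double-knockout reads cannot be ranked against another of its kind.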

Other observations

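The 619 regions were spread unevenly over chromosomes. Chromosome 11 held 71 of them, 14.0% of its 507 regions, and chromosome 2 held 63 (13.02%), while the X chromosome held 6 of 178 (3.37%), among them those of Cxx1a and Cxx1b, and the Y chromosome 0 of 13. Gene density and expression differ between chromosomes, and their part in this was not tested.

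Several regions under uncharacterized genes, which the rule for named genes passed over, were as deep as the named ones. They are given here after their values were seen. 4930413G21Rik, a non-coding gene by RefSeq, had 305 reads against 15 (16.8-fold) in a region on chromosome 7 (122969989 to 122970406) that the table also places upstream of Rbbp6. 9930013L23Rik had 137 against 1 (113-fold) beside 25 against 0, and 5031425E22Rik, non-coding and upstream of Mll5, had 121 against 5 (19.96-fold, 8.32 to 62.6). C230081A13Rik had 111 against 0 in the 3'UTR and 68 against 2 in its coding regions. Emx2os, the antisense transcript of the forebrain gene Emx2, had 37 against 0, and without stated strand its reads cannot be told apart from those of Emx2.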
